A study of Mus musculus with 4 samples.

Results

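Replication-dependent histone genes encode the core histones H2A, H2B, H3 and H4 that package newly made DNA, and they lie in clusters in the mouse genome. The genes described here are the protein-coding genes of the RefSeq table of GRCm38 whose symbols begin with H2ac, H2bc, H3c or H4c followed by a number. There were 57 of them among 21883 protein-coding genes, with 17 for H2A, 16 for H2B, 12 for H3 and 12 for H4. They fell into 3 groups when neighbours less than 500 kb apart were joined. One group of 10 genes spanned 50.3 kb of chromosome 3, from H2ac21 to H2bc18 (chr3:96219885-96270192). A group of 21 genes spanned 328 kb of chromosome 13, from H2bc13 to H2bc11 (chr13:21715711-22043658), and is called block 1 here. Another group of 26 genes, block 2, spanned 404 kb from H4c8 to H2ac1 (chr13:23531044-23934913). The genes were short, with a median length of 487 bp, and 52 of the 57 were at most 1 kb long.

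Binding was measured by chromatin immunoprecipitation and sequencing in mouse embryoid bodies, aggregates of differentiating embryonic stem cells, at day 6 of culture. The antibodies were against Trim33, a chromatin reader of the TRIM family, against CTCF, the zinc finger protein of insulators and loop anchors, and against H3K27ac, the acetylated lysine of histone H3 found at active promoters and enhancers. All 4 libraries, the 3 immunoprecipitations and 1 of input DNA, came from stem cells of blastocysts with the Trim33FF allele and the UbcCreERT2 transgene, of an outbred strain whose label names B6 and 129Sv, and the labels state no treatment. The ubiquitin C promoter drives a tamoxifen-inducible Cre in this transgene, and no library without Trim33 was analysed here. Each antibody had 1 library from chromatin of embryoid bodies pooled over many dishes, so no value has a replicate check and no test between conditions was possible. The deposited lists held 4426 Trim33, 52446 CTCF and 30047 H3K27ac peaks, from 13643929, 33090822 and 29995044 tags. The Trim33 library had 0.72% of its reads in peaks and 40.9% duplicates, against 13.02% and 6.36% for H3K27ac, so a gene without a listed Trim33 peak is one where none was detectable at this depth. The labelled cell type was checked by its markers, and an H3K27ac summit lay within 1 kb of 11 of 17 embryoid body markers, among them Pou5f1, Nanog, Sox2, Gata4 and Sox17. This is 64.7% (95% Wilson interval 41.3 to 82.7), an interval that holds the 47.1% of all protein-coding genes, so the count alone does not set the markers apart. None lay within 1 kb of the other 6 (Afp, Hand1, Kdr, Mixl1, T and Zfp42) or of the 5 markers of muscle, liver and lymphocytes.

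Core histone genes are switched on together as cells enter S phase, when the coactivator Npat, a target of cyclin E and Cdk2, gathers on them in histone locus bodies. Their messages end in a stem loop bound by Slbp rather than in a poly(A) tail. Genes for H2A and H2B often stand head to head and share the promoter between them, where CCAAT boxes, TATA boxes and, in H2B promoters, an octamer bound by the POU factor Oct-1 are known elements.

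RefSeq promoters of GRCm38.p6, from 250 bases before to 50 bases after the gene start, were at hand for 52 of the 57 genes, and H3c7, H2bc4, H3c1, H2bc21 and H4c14 had no entry. Capitals mark the TATA box searched as TATAAA, the CCAAT box, which is ATTGG when read on the other strand, and the octamer searched as ATTTGCAT, each on both strands. H3c10 (chr13:21717378-21717677, plus strand) is shown for its flanking H3K27ac peaks, and H2bc11 (chr13:22042948-22043247, plus strand) for the promoter it shares with H2ac11 beside the highest H3K27ac peak of block 1. H4c1 (chr13:23761200-23761499, minus strand) reaches into a Trim33 peak. H2bc1 (chr13:23934107-23934406, minus strand) had no peak of any antibody. H4c17 (chr13:21811496-21811795, plus strand) and H4c18 (chr13:21832148-21832447, minus strand) are near copies. Only H4c18 had H3K27ac summits within 5 kb, and neither had any within 1 kb.
H3c10: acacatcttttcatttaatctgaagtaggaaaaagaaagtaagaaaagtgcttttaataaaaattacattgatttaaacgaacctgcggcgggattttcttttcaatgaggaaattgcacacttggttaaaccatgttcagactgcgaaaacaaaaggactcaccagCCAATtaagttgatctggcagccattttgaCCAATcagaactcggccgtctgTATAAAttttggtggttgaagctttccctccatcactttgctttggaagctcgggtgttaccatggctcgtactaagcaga
H2bc11: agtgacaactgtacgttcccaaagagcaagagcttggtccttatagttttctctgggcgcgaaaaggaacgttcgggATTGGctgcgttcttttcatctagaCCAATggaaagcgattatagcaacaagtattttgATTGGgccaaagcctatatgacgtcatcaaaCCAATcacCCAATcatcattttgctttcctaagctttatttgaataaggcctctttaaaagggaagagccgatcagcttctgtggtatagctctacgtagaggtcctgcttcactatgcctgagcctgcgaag
H4c1: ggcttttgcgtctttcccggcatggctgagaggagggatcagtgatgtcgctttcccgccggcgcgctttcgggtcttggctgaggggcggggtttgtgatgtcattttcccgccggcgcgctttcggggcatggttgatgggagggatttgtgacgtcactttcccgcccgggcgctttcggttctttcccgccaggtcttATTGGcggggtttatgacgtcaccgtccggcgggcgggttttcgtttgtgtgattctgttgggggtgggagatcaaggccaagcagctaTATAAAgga
H2bc1: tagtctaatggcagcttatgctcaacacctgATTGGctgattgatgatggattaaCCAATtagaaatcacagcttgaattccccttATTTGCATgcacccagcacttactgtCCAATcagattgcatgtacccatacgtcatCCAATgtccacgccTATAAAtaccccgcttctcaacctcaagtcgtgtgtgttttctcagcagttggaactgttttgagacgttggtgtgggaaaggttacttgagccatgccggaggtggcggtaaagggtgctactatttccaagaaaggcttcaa
H4c17: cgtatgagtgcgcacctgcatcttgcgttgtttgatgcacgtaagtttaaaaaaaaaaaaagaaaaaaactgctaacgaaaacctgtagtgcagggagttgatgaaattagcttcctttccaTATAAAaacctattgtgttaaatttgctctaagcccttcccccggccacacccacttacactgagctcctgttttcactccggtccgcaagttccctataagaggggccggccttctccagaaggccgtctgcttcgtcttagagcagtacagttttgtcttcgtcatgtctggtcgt
H4c18: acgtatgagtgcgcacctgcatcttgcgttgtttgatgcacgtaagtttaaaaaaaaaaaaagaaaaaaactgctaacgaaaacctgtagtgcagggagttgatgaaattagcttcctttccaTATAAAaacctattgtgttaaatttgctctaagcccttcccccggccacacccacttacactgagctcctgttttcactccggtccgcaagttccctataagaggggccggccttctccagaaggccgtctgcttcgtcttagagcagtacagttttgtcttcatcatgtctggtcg

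A CCAAT box was present in all 17 H2A, all 14 H2B and all 10 H3 promoters, but in 3 of 11 H4 promoters. Over the 52 promoters it was found in 44 (84.6%), compared with 39.2% of 17491 promoters of protein-coding genes. H2bc11 carried 5 of them, and H3c10 carried a pair, 83 and 53 bases upstream of the start. TATAAA was found in 30 of the 52 (57.7%, against 13.3% of all), and in 8 of the 11 H4 promoters. Its place varied: it began 31 bases upstream of the annotated start in H3c10, 127 bases upstream in H4c18 and 41 bases downstream in H4c1. In 10 of the 52 it lay on the gene's own strand between 20 and 45 bases upstream, and no share over all promoters is given for that position. Some of the 30 matches lay on the other strand, as 198 bases upstream of H2bc12, where the same letters are counted for its partner H2ac12. The octamer was limited to 6 of 17 H2A and 6 of 14 H2B promoters, which makes 23.1% of the 52, against 1.72% of all. Several of these are head-to-head pairs whose windows overlap, so that the same octamer is counted for both genes, as for H2bc1 and H2ac1. A core CTCF motif was found in none of the 52 promoters and in 0.543% of all. Each match is a description of the letters, and binding of these factors was not measured.

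H3K27ac was listed at nearly all core histone genes. Of the 57 genes, 52 had an H3K27ac summit inside the gene or within 5 kb (91.2%, 95% Wilson interval 81.1 to 96.2), while 50.5% of all protein-coding genes did. The intervals cover counting error only, and neighbouring histone genes share peaks and are not independent. The listing covered all 12 H3 genes, 11 of 12 H4 genes, 15 of 17 H2A genes and 14 of 16 H2B genes. The 5 genes without any peak were H2bc23, H2ac23 and H4c17 in block 1 and the pair H2bc1 and H2ac1 in block 2. Other protein-coding genes under 1 kb, with a median length of 933 bp, had H3K27ac in 3.61% of 1524 cases. This set was chosen by length alone and was not matched to the histone genes in activity. Cytosolic ribosomal protein genes, another set of highly used genes, had it in 92.9% of 84, and none of the 39 Hox genes did (Wilson upper bound 8.97%).

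**Figure D1:**
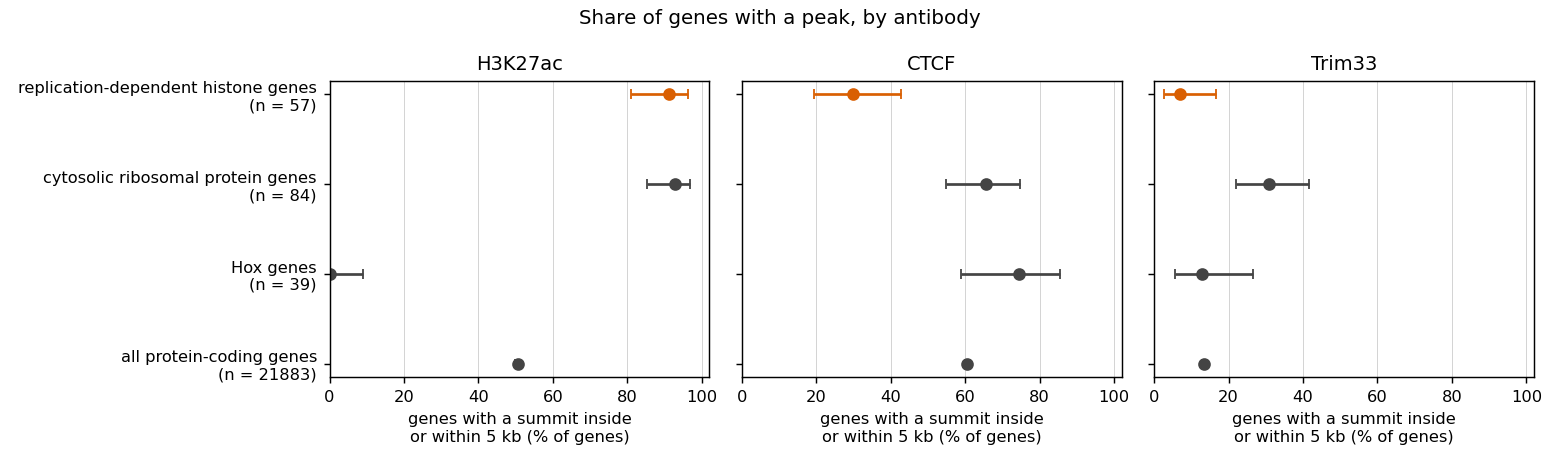
Share of genes (%) with a peak summit inside the gene or within 5 kb, for H3K27ac, CTCF and Trim33, in 4 sets of genes; points are shares and bars are 95% Wilson intervals, which cover counting error only. Histone genes reach 91.2% for H3K27ac, 29.8% for CTCF and 7.02% for Trim33, beside 50.5%, 60.6% and 13.5% of all protein-coding genes.

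CTCF was listed at 17 of the 57 genes (29.8%, interval 19.5 to 42.7), against 60.6% of all protein-coding genes, and Trim33 at 4 (7.02%, interval 2.76 to 16.7), against 13.5%. The interval for Trim33 includes the share of all genes. The median protein-coding gene was 17170 bp long, so a window that includes the gene body is wider for most genes than for histone genes. With 5 kb on either side of the gene start, the same width for every gene, H3K27ac was listed at 46 of 52 histone genes (88.5%, interval 77 to 94.6) and at 44.2% of all. In that window CTCF was listed at 14 of 52 (26.9%, interval 16.8 to 40.3) and at 36.4% of all, and Trim33 at 3 (5.77%, interval 1.98 to 15.6) and at 8.6% of all. With equal windows the share of all genes therefore fell within the interval of the histone genes for CTCF and Trim33, and below it for H3K27ac.

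The 87 H3K27ac peaks at histone genes were higher than most of their list. Fold over background, the authors' own value for each peak, ranged from 3.8 to 21.3 with a median of 8.83, compared with 6.74 over the whole list, and 62 of the 87 lay above that list median. They were also broader, with a median width of 748 bp against 443 bp. Another H3K27ac summit lay within 2 kb of 93.1% of them, against 68.8% of the list, although the median distance to the nearest summit was 1.04 kb in both. A histone gene had a median of 4 H3K27ac summits within 5 kb, and the neighbours H2ac8, H2bc8 and H2bc7 had 10 each, which they partly share. The whole list is not selected for lying near genes. Over genes with a summit, the median of the highest fold within 5 kb was 13.6 for histone genes. It was 10.9 for all protein-coding genes and 18.8 for ribosomal protein genes.

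On chromosome 3, one peak stood above the others. It was 2301 bp wide, had its summit inside the H2A gene H2ac21, lay within 5 kb of H2ac20 and H2bc21, and reached a fold of 21.3, rank 798 of the list. The rest of that group was lower. H4c14 had 8.16, the H3 gene H3c15 and its neighbour H2ac19 shared a peak of 6.88, and H3c13 and H2bc18 shared one of 5.83. H2ac18 and H3c14 shared one of 4.84, the lowest of the highest folds at any of the 52 genes. The median over the 6 peaks of chromosome 3 was 6.36, below the list median, and the median gene had 1 summit within 5 kb.

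In block 1, 18 of 21 genes had H3K27ac, through 26 peaks with a median fold of 10.4. The highest, 20.4 (rank 951, chr13:22041358-22042668), had its summit 29 bp from the end of the H2A gene H2ac11, and it also lay within 5 kb of H2bc11 and of the H4 gene H4c9. H4c11, another H4 gene, followed with 18.8 and its summit 589 bp upstream of the start. The head-to-head pair H2bc13 and H2ac13 and the H3 gene H3c10 shared a peak of 15.5. Fold thus varied along the block, with 14.8 at H2ac12, 13.7 at H3c11, 12.9 at H2ac22 and 9.18 at H4c12.

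In block 2, 24 of 26 genes had H3K27ac, through 55 peaks with a median fold of 8.5, so peaks were more numerous there while the median fold was lower than in block 1. The H4 gene H4c6 had the highest fold, 19.3, in a peak 4495 bp wide (chr13:23551743-23556237), the widest of the 87, whose summit lay 1.02 kb upstream of the start. H2ac10, H3c8 and H4c8 shared a peak of 18.6. H4c4 and the H2B gene H2bc6 shared one of 16.7, which lay inside H2bc6, annotated as 37455 bp long. The H4 gene H4c3 was the lowest of the block, with 5.07 and its only summit 1.7 kb from the gene.

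**Figure D2:**
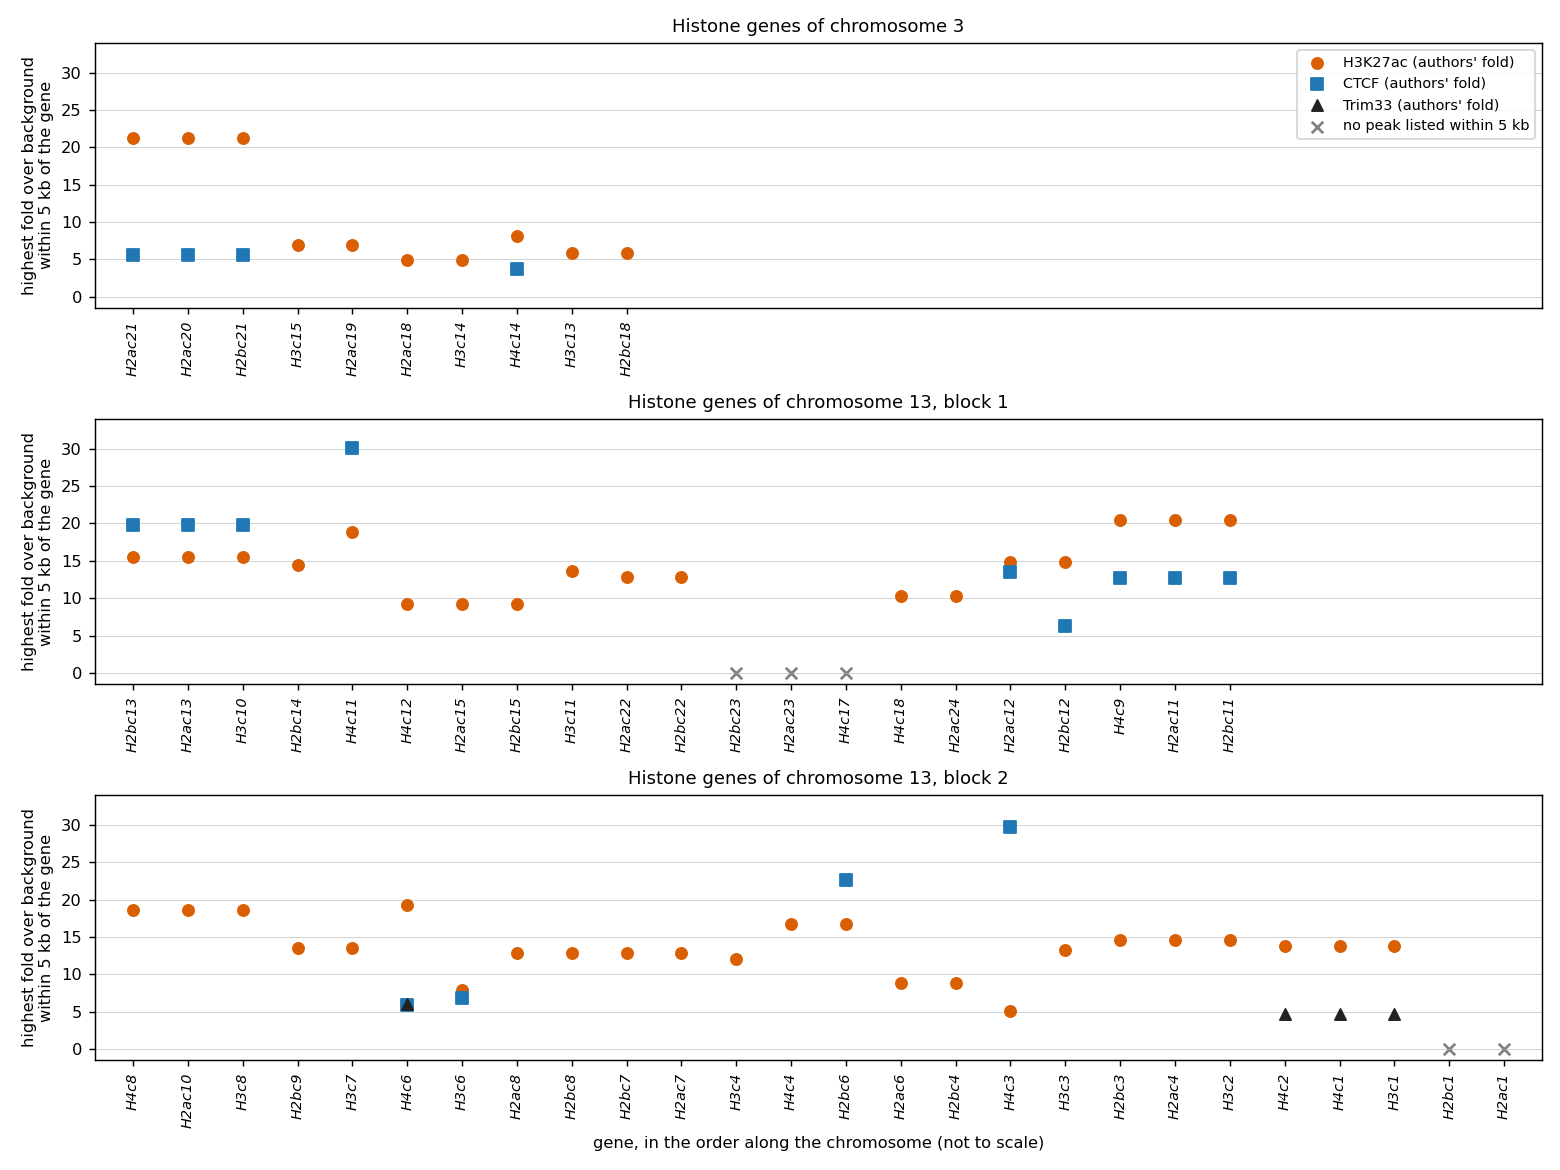
Highest fold over background (authors' values) of any peak with its summit inside the gene or within 5 kb, for each of the 57 histone genes in their order along the chromosome; circles are H3K27ac, squares CTCF, triangles Trim33, and crosses genes with no peak of any antibody. H3K27ac runs from 4.84 at H2ac18 and H3c14 to 21.3 at H2ac21, Trim33 appears at 4 genes of block 2, and the crosses are H2bc23, H2ac23, H4c17, H2bc1 and H2ac1. Neighbours with equal values share a peak, and folds of different antibodies are not on a common scale.

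H3K27ac summits stood to either side of histone gene starts rather than on them. Of the 52 genes with a known start, 7 had a summit within 250 bp of it (13.5%), against 24.2% of all genes. In contrast, 26 had one between 250 bp and 1 kb upstream (50%, against 13% of all) and 28 had one at that distance downstream (53.8%, against 16.2%). Both flanks were marked at 21 genes (40.4%, against 5.17% of all). Ribosomal protein genes had a downstream summit about as often, at 32 of 64 (50%), but an upstream one at 6 (9.38%) and both at 4 (6.25%). Of the 65 summit positions within 1 kb of a histone gene start, 10.8% lay within 250 bp, compared with 45.2% for all genes, 38.1% for ribosomal protein genes and 42.9% for other genes under 1 kb. The median distance from the start was 588 bp for histone genes and 274, 321 and 318 bp for those sets. Neighbouring histone genes share summits, so the 21 genes and 65 positions count some summits more than once. The head-to-head pairs H2ac12 with H2bc12, H2ac13 with H2bc13 and H2ac7 with H2bc7 each share both flanking summits. A flank summit can also lie nearer a neighbouring gene, and the other sets were not matched for such closeness of genes. The limits of 250 bp and 1 kb were chosen after the positions had been seen. At a median gene length of 487 bp, a downstream flank summit could lie just past the gene. At H3c10 it lay 4 bp and at H2ac13 22 bp from the gene. The authors kept only uniquely aligned reads, and whether reads were lost within the genes was not tested.

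The H3 genes showed this most evenly, with no summit within 250 bp of any of their 10 starts and summits in both flanks at 6. H3c10, whose promoter is printed above, had summits 747 bp upstream and 491 bp downstream of its start. H3c11 had them 650 bp upstream and 525 bp downstream. H3c2 had them 818 bp upstream and 467 bp downstream. Over the 6 genes the distance between the nearest upstream and downstream summits ranged from 934 bp at H3c4 to 1334 bp at H3c3. At H3c10, H3c8, H3c4, H3c3 and H3c2 the upstream summit lay nearer another histone gene. These were H2ac13, H2ac10, H2ac7, H2bc3 and H2ac4, in that order, so the flanks of H3 genes include peaks of their neighbours. Among the H4 genes, 1 of 11 had a summit within 250 bp of the start and 5 had both flanks marked. H4c11 is one of these, with summits 589 bp upstream and 373 bp downstream. For H2A, 3 of 17 had a summit within 250 bp and 6 had both flanks marked, and for H2B these numbers were 3 and 4 of 14. H2ac21 differed, with the summit of its peak 78 bp downstream of the start.

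**Figure D3:**
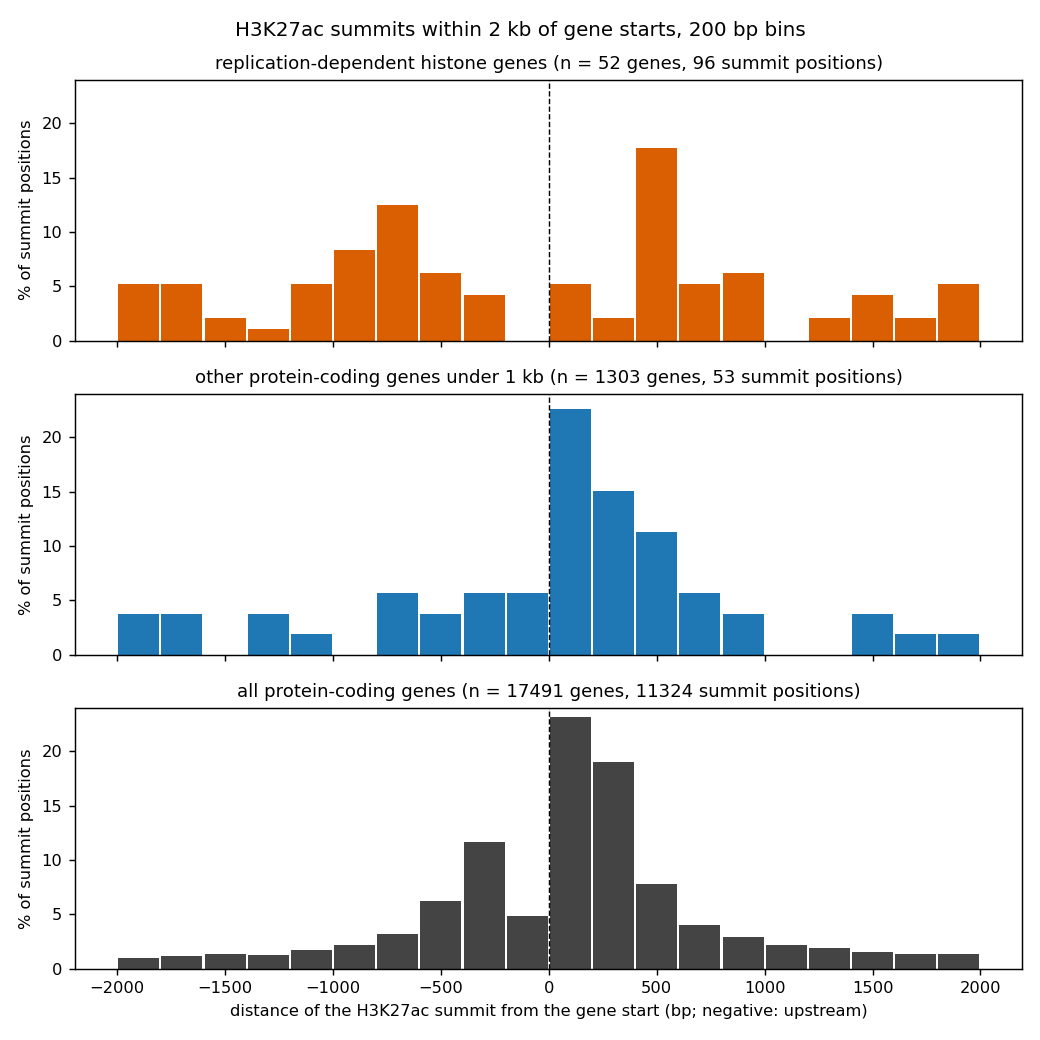
Distance of H3K27ac summits from the gene start (bp, negative upstream) in bins of 200 bp, as % of the summit positions within 2 kb, for 52 histone genes (96 positions), 1303 other protein-coding genes under 1 kb (53 positions) and all 17491 protein-coding genes with a start (11324 positions). Histone gene summits gather in the flanks, with a median distance of 588 bp among those within 1 kb, while both other sets have their highest bin just downstream of the start. A summit near several gene starts is counted for each of them.

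The same summits were also placed against the midpoints of head-to-head H2A and H2B genes. There were 9 pairs with starts 164 to 281 bp apart, and 6 of them had an H3K27ac summit within 1500 bp of the midpoint between the starts. At 4 pairs summits lay on both sides. H2ac12 and H2bc12 had one 695 bp to the H2A side, with a fold of 14.8, and one 641 bp to the H2B side, with 10.5. H2bc13 and H2ac13 had them at 584 bp (15.5) and 606 bp (7.99) on the H2A and H2B sides. The printed promoter of H2bc11 thus lies in a stretch with no summit: its pair had a single H3K27ac summit, 624 bp to the H2A side with a fold of 20.4, and a CTCF summit of 12.7 at 1260 bp on the H2B side. At 2 pairs, H2ac8 with H2bc8 and H2bc7 with H2ac7, a summit lay within 250 bp of the midpoint. The 3 pairs with none were H2ac15 with H2bc15, H2bc1 with H2ac1 and H2bc23 with H2ac23.

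**Figure D4:**
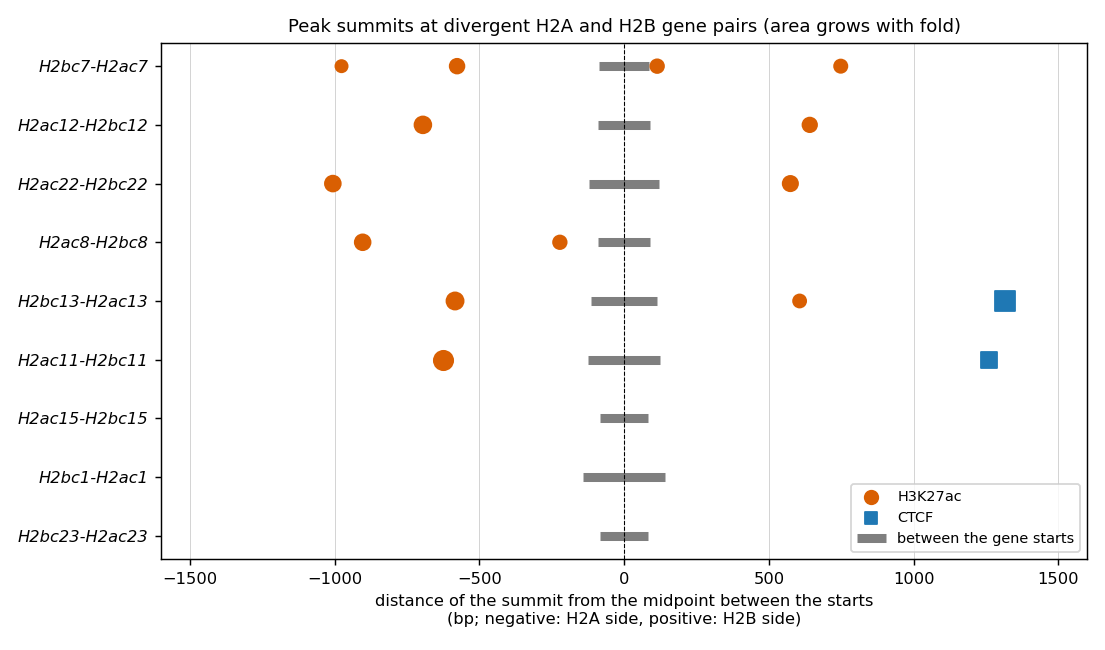
Position of H3K27ac (circles) and CTCF (squares) summits within 1500 bp of the midpoint between the starts of 9 head-to-head H2A and H2B gene pairs (bp, negative to the H2A side); marker area grows with fold, and grey bars span the distance between the starts. At 4 pairs H3K27ac lies on both sides, at 2 on one side, and 3 pairs have no summit.

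The 5 genes without a peak belong to 2 places. H2bc1 and H2ac1, whose products are the testis histones TH2B and TH2A, stand at the far end of block 2, and their nearest H3K27ac summits were 170 and 171 kb away. The H2bc1 promoter has TATAAA, 94 bases upstream of the start, the octamer and CCAAT boxes, as printed above. Over the 52 histone promoters TATAAA was found in 30, the octamer in 12 and a CCAAT box in 44. A link of these letters to acetylation was not tested. H2bc23, H2ac23 and H4c17 are neighbours in block 1, with the nearest H3K27ac summits 18.5, 18.4 and 17.2 kb away. The H4c17 promoter was 99% identical to that of H4c18. The 3 edits between them include a shift of the window: TATAAA began 128 bases upstream of the start in H4c17 and 127 in H4c18. H4c18 had an H3K27ac summit of 10.3 at 1.49 kb from the gene, 1894 bp downstream of its start. Neither gene had an H3K27ac summit within 1 kb. Only uniquely aligned reads were used by the authors, and whether the near copies lost reads was not tested. In all, 6 of the 52 promoters had a partner of at least 80% identity, the others being H3c14 with H3c15 (89.7%) and H4c11 with H4c12 (87%). The median identity with the most similar promoter was 53.5%.

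Trim33 was listed at the histone genes through 2 peaks, both in block 2 and both under H3K27ac peaks. One (chr13:23555007-23555258) had a fold of 6.03, rank 1661 of 4426, a summit inside the linker histone gene H1f3 and a distance of 3.4 kb to H4c6. It lay in the broad H3K27ac peak of 19.3, whose own summit was 1.02 kb from H4c6. Within 1 kb of H1f3 the highest H3K27ac summit was 6.21. The other (chr13:23761404-23761699) had a fold of 4.67, rank 3609. Its summit stood 255 bp from the H3 gene H3c1 and 381 bp upstream of the H4 gene H4c1, in the stretch between them, and within 5 kb of H4c2, over an H3K27ac peak of 13.8. Thus 3 H4 genes, 1 H3 gene and no H2A or H2B gene had Trim33 within 5 kb, beside 13.5% of all protein-coding genes. The peak of 4.67 alone gave H3c1, H4c1 and H4c2, so no difference between the histone types can be read. Neither peak overlapped CTCF. Of all 4426 Trim33 peaks, 42.6% overlapped H3K27ac and 44.7% overlapped CTCF, and with 2 peaks no difference from these shares can be read. The list median for Trim33 was 5.67, so one peak lay just above and the other below it. The −log10 q of the peaks was 6.11 and 3.96, and both drop out at a −log10 q of 10. The printed H4c1 promoter reaches into the lower one. Ribosomal protein genes had Trim33 within 5 kb in 26 of 84 cases (31%, interval 22.1 to 41.5).

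Another pair of Trim33 peaks lay near block 1 but outside the 5 kb limit, and both overlapped CTCF and H3K27ac. One (chr13:22050865-22051376) stood 7.56 kb from H2bc11, had a fold of 7.23 and overlapped a CTCF peak of 44 and an H3K27ac peak of 8.95. The other (chr13:21974305-21974707) lay between the genes, 60.7 kb from H2ac12, with 6.83 for Trim33, 29.7 for CTCF and 8.4 for H3K27ac. A window of 10 kb takes in the first of them, at H2bc11, H2ac11 and H4c9. With H3c6 and H3c2, reached at that window by the peaks of block 2, it raises the genes with Trim33 from 4 to 9.

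CTCF was listed at histone genes through 13 peaks with folds of 3.7 to 30.1 and a median of 9, close to the list median of 9.46. The highest was at H4c11, where CTCF of 30.1 (chr13:21734037-21734588, rank 1875) stood 749 bp upstream of the start under the H3K27ac peak of 18.8. H4c11 also had a second CTCF peak of 9. At H4c3, where H3K27ac reached 5.07, CTCF reached 29.7 at 2.9 kb from the gene and 676 bp from the iron regulator gene Hfe. Inside H2bc6 CTCF reached 22.6, and 729 bp from the end of H2bc13 it reached 19.8, with a lower peak of 5.47 beside it. High CTCF thus occurred both with and without high H3K27ac.

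The other CTCF peaks were lower. H2ac12 had peaks of 13.5 and 6.28 at 4.51 and 3.87 kb, and H2bc11 had one of 12.7 at 676 bp. H3c6 had 6.86, H4c6 had 5.94 inside the gene, and on chromosome 3 H2ac21 had 5.64 and H4c14 had 3.7. By type, CTCF was within 5 kb of 5 of 17 H2A, 5 of 16 H2B, 2 of 12 H3 and 5 of 12 H4 genes. Of the 13 peaks, 6 overlapped H3K27ac, compared with 8.23% of all CTCF peaks, which are not selected for lying near genes. The peaks nearest the 5 kb limit were one of 13.5 at 4513 bp and one of 7.35 at 5007 bp from H2ac12, the latter outside. The highest CTCF peaks of the region lay beyond the limit, on either side of the genes from H2ac12 to H2bc11: one of 43.9 (rank 148) stood 6.26 kb before H2ac12 and one of 44 (rank 142) 7.44 kb after H2bc11.

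Linker histone genes inside the clusters, which encode H1, had H3K27ac within 1 kb in 6 of 6 cases, against 41 of the 57 core histone genes (71.9%) and 47.1% of all protein-coding genes, with 13.7 at H1f5 as the highest and 5.07 at H1f6 as the lowest fold. Trim33 lay inside H1f3 (6.03) and within 5 kb of H1f1 (4.67), through the peaks described above. Genes listed as replication-independent histones, which can be expressed outside S phase and some of which are spliced, had H3K27ac within 1 kb in 10 of 10 cases. Trim33 was within 1 kb of 11% of all protein-coding genes and of 3 of these: Cenpa, the centromeric H3 variant (6.33), H2ax, the variant phosphorylated at DNA breaks (5.94), and H3f3b, which encodes H3.3 (4.33). Genes for factors that act on histone genes, messages and proteins had H3K27ac within 1 kb in 26 of 26 cases, with 12 at Npat and 18.8 at Slbp. Trim33 lay at 2 of them (7.69%, near the share of all genes), Zfp473, a partner of the U7 particle that cleaves histone messages (7.33), and Sympk, which encodes the cleavage scaffold symplekin (5.94).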

How the data were processed

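Mouse embryoid bodies were profiled by ChIP-seq with 1 library per antibody and 1 input library. Per the submitters' processing notes, BWA 0.7.12, MACS, MACS2 and SICER 1.1 were used and builds mm10 and hg19 named. The authors' deposited summary names MACS 2.1.0, gives counts of reads and tags per library and shares of reads in peaks as a percent, and uses unique alignments of mapping quality at least 25. Peak lists were called by the authors per antibody against input and hold fold enrichment, −log10 p and −log10 q for each peak. The lowest deposited −log10 p was 5.06 for Trim33 and 7.03 for both others, so the Trim33 list was made at a looser limit. Folds were compared only within a list.

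Summits were assigned to genes of the RefSeq GRCm38.p6 table (the assembly of mm10) that they lay inside or within 5 kb of, and overlap meant at least 1 bp. The promoter table of the same assembly gave starts, strands and sequence. Shares have 95% Wilson intervals, and there is no test, since each antibody has 1 library. Promoter identity was taken as edits over 300 bases with edlib 1.3.9.post1, intervals came from scipy 1.17.1 in Python 3.11.15, tables were handled with pandas 2.3.3 and numpy 2.4.6, and plots were drawn in matplotlib 3.10.9, and the assignment was tested on simulated data. Alternatives were other windows (1, 2 and 10 kb), stricter peak limits, any base of a peak in place of its summit, and a 100 kb gap between clusters. Windows around the gene start, leaving out genes over 1 kb and adding older symbols were chosen after seeing the data.

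The members and lists were chosen with earlier results of these data known. Genes named were those with Trim33 within 5 kb, the 5 per cluster with the highest H3K27ac and the 5 highest CTCF peaks per cluster, genes with no peak, and members of the comparison lists with Trim33. Other genes named, the classes of distance around the start, the limits for pairs and the printed promoters were chosen after values were seen.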

Additional observations from a re-analysis of the deposited data

How the results depend on the processing

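No paired analysis was possible because each antibody had 1 library, and no library could be left out. Of 45 alternatives, 31 moved a count by no more than 1.5 times, among them all 10 for the genes with H3K27ac, which ranged from 41 to 56. The alternative of a −log10 p of at least 7 could not change the genes with H3K27ac or CTCF. Both of these lists have 7.03 as their lowest value. Genes with Trim33 (4) became 2 at 1 kb and at 2 kb, 9 at 10 kb, 0 at a −log10 q of at least 10 and 1 at a fold of at least the list median. Trim33 peaks (2) became 1 at 1 kb and 0 at that −log10 q. Genes with CTCF (17) became 7 at 1 kb, 29 at 10 kb and 10 at the median fold, and CTCF peaks (13) became 7 at 1 kb and 21 at 10 kb. H3K27ac peaks (87) became 57 at 1 kb. The number of clusters rose from 3 to 5 with a gap of 100 kb. These changes follow from the windows and limits themselves. With 0.72% of reads in peaks, the Trim33 library limits what its list can show at these genes.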

Other observations

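Core histone genes with other symbols also carried H3K27ac. On chromosome 6, the neighbours H2aj and H4f16 both had 16.7 as the highest fold within 5 kb. Their windows overlap, so this can be the same peak. On chromosome 11, H2aw had 16.8 and H2bu2 had 6.97, whereas H3f4 had none listed and a CTCF peak of 12.5. H2aw also had CTCF, with 13.3. None of these genes had a Trim33 summit within 5 kb.

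Transfer RNA genes lie between the histone genes of block 1. Of the 36 CTCF peaks inside the 3 spans or within 20 kb of them, 7 stood within 1 kb of a transfer RNA gene, all in block 1, compared with 74 of the 52446 peaks of the list (0.141%). Of the 7 peaks there that were in the top 10% of the list by fold (at least 23.7), 4 stood within 1 kb of a transfer RNA gene and 2 within 5 kb of a histone gene. These include the CTCF peaks of 44 and 29.7 that overlapped Trim33, whose Trim33 summits lay 447 bp from n-TSgct5 and 622 bp from n-TMcat8. This pattern was noticed in these data and was not tested.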
